A study of Mus musculus with 3 samples.

Results

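C130026I21Rik, Sp140, A530032D15Rik and A530040E14Rik are 4 neighbouring genes of mouse chromosome 1 that share sequence with the Sp140 gene, out of 55450 annotated genes with a transcript sequence. They were chosen by their many short reads of both strands in earlier processing of these same libraries, so their abundance, strand and window pattern are given as a description with no test. A read was counted for the family when its first 20 nt matched a transcript of any of the 4 genes on either strand. The reads came from total RNA of fully grown mouse oocytes, which have ended their growth inside the ovarian follicle. The mice were given 5 IU of the gonadotropin PMSG 48 hours before the oocytes were taken. The sources used here name neither strain nor age. The RNA was cut from gels in windows of 19-30 nt, 19-24 nt and 24-30 nt, with 1 library for each window, and differences between libraries are without replicates. All intervals below are 95% intervals for counting error alone, without the spread that PCR or library preparation adds.

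SP100-family proteins, among them Sp100, Sp110 and Sp140, are interferon-inducible proteins of nuclear bodies that are best known from immune cells. Mouse oocytes make endogenous siRNAs, which Dicer cuts from double-stranded RNA and which Ago2 binds. Such double strands can form where a gene is transcribed from both strands, or where a transcript pairs with the antisense transcript of a related copy. Oocytes also hold piRNAs, longer small RNAs bound by PIWI proteins, which often match transposons and in which opposite strands can overlap at their 5' ends by a fixed length.

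C130026I21Rik (ENSMUSG00000052477.15, chr1:84992690-85270566, minus strand), Sp140 (ENSMUSG00000070031.11, chr1:85600378-85645037, plus strand) and A530032D15Rik (ENSMUSG00000089844.7, chr1:85083069-85109853, minus strand) are annotated as protein coding on GRCm38. A530040E14Rik (ENSMUSG00000072109.11, chr1:85105946-85114035, plus strand) is annotated as an antisense long non-coding RNA. Below, sense and antisense refer to the 3 coding genes unless the strand of A530040E14Rik is named.

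The reads that carried most of the family signal matched exons 2 and 3 of the coding genes on either strand. The most frequent ones are shown because each was found at 4 places, 1 in each copy. The first base is in capitals, sequences are written 5′ to 3′ with T for U, and all lie on chromosome 1.
antisense read at position 66: Ttgaagtgcttgaacatgagct
antisense read at position 141: Aagtctcggtctcgaaggct
antisense read at position 50: Tgagctgatagtcatctgact
sense read at position 106: Gtttcctttcctcatgagcct
sense read at position 21: Atgaagaggagtcagatgact
sense read at position 120: Tgagccttcgagaccgagactt
Positions give the read's 5' base, counted from 1 at the first base of exon 2 of Sp140. In the A530032D15Rik copy the first of these reads lies at chr1:85100629-85100650 on the plus strand, opposite to the gene. It was read 87 times in the 19-30 nt, 19 times in the 19-24 nt and 0 times in the 24-30 nt window. The most frequent sense read was read 16, 12 and 0 times in these libraries.

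The family held 2882 reads in the 19-30 nt window, 1351 in the 19-24 nt window and 605 in the 24-30 nt window, with 794 distinct 20-base starts among the 4838 reads. These libraries held 198537, 310724 and 349756 reads that matched an annotated transcript, from 943811, 764539 and 1484509 reads in all. Per 1000000 matched reads (RPM), the family stood at 14516 RPM in the 19-30 nt, 4348 RPM in the 19-24 nt and 1730 RPM in the 24-30 nt window. The 3 reads that a count of 0 allows equal 15.1, 9.65 and 8.58 RPM in these libraries. The level in the 19-24 nt window was 2.51 times that in the 24-30 nt window (interval 2.28 to 2.77). The level in the 19-30 nt window was 8.39 times that in the 24-30 nt window (7.68 to 9.18) and 3.34 times that in the 19-24 nt window (3.13 to 3.56). Reads that matched an annotated microRNA gene in sense are called microRNA below. They made up 18.5%, 79.0% and 7.25% of the matched reads of the 19-30, 19-24 and 24-30 nt libraries. Per 1000000 matched reads without microRNA, the 19-24 nt level was 11.1 times the 24-30 nt level and the 19-30 nt level 0.862 times the 19-24 nt level. The direction between the 19-30 and 19-24 nt libraries, and the size of the ratio between the 19-24 and 24-30 nt libraries, thus depend on the denominator. The 19-24 over 24-30 nt ratio was 11.7 with reads weighted by places, 5.11 per usable read and 4.84 over distinct sequences. The 19-30 nt library also has longer reads (36 nt against 26 nt), and the part of read length or preparation in these ratios was not tested.

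At least 2-fold more RPM in the 19-24 nt than in the 24-30 nt window was seen for 25% of the 11770 genes with 10 or more reads in that pair, and for 4 of the 4 members. The median ratio was 36.2 over the members and 0.858 over all those genes, with counts under 3 in the 24-30 nt library raised to 3. Between the 19-30 nt and 24-30 nt libraries the share was 53.9% of 12577 genes, and again 4 of the 4 members passed. These ratios are of the kind that chose the genes, and the members share most of their reads, so nothing is read from these counts.

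Of the 4838 reads, 3126 matched all 4 members and no other annotated gene, from 243 distinct 20-base starts. Another 36 matched 2 or 3 members, 476 matched 1 member only and 1200 also matched genes outside the family. The shared reads stood at 10164 RPM in the 19-30 nt, 3473 RPM in the 19-24 nt and 82.9 RPM in the 24-30 nt window, from 2018, 1079 and 29 reads. Their level in the 19-24 nt window was 41.9 times that in the 24-30 nt window (interval 29.0 to 62.8), and 184.7 times without microRNA in the denominator. Reads that also matched outside genes had 521 RPM in the 19-24 nt and 1610 RPM in the 24-30 nt window, a ratio of 0.324 (0.270 to 0.386). Without microRNA in the denominator that ratio was 1.43 (1.19 to 1.70), so its direction depends on the denominator. Only the denominator changed, and family reads that also matched an annotated microRNA gene stayed in the counts. Their effect on the ratio was not tested. Without the reads that also matched elsewhere, the family ratio between the 19-24 and 24-30 nt libraries was 31.9.

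**Figure D1:**
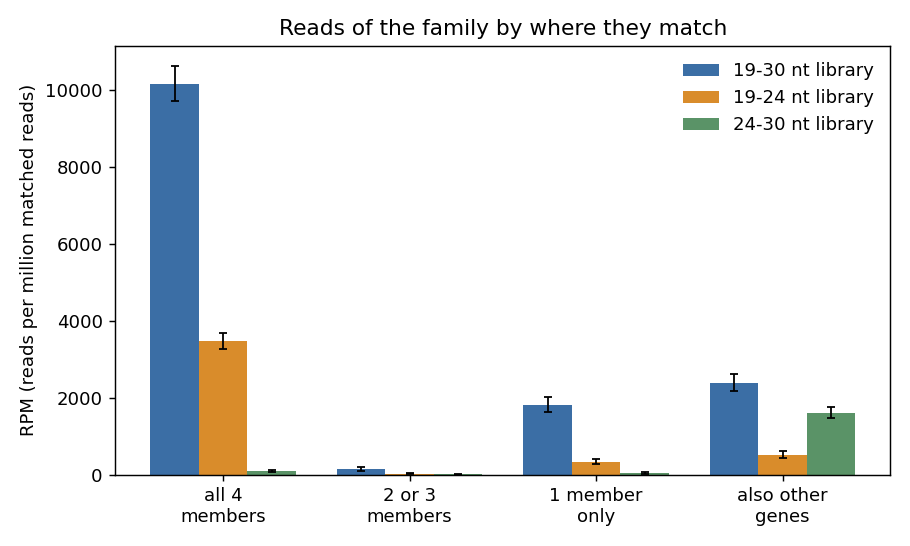
Level of family reads in RPM (reads per 1000000 matched reads) by where they match, for the 19-30 nt, 19-24 nt and 24-30 nt libraries; bars are single libraries and whiskers are exact Poisson 95% intervals. Reads found in all 4 members reach 10164 RPM in the 19-30 nt window and 82.9 RPM in the 24-30 nt window, whereas reads that also match other genes stand at 2393 and 1610 RPM.

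Counted per gene, with shared reads counted for each gene they match, C130026I21Rik had 2405, 1210 and 39 reads in the 19-30, 19-24 and 24-30 nt libraries. Sp140 had 2107, 1096 and 33 reads, and A530032D15Rik had 2041, 1082 and 29. A530040E14Rik had 2445, 1213 and 593, the only member with more than 39 reads in the 24-30 nt library. Reads private to 1 member were few for 2 of the genes. Over the 3 libraries, C130026I21Rik had 352 private reads and A530040E14Rik 118, while A530032D15Rik had 4 and Sp140 had 2. Whether Sp140 or A530032D15Rik gave rise to small RNA of its own cannot be told from such counts, because their reads are shared with the other copies.

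Exon 2 (163 nt) and exon 3 (172 nt) hold coding sequence. In Sp140 they lie at chr1:85609694-85609856 and chr1:85610739-85610910 on the plus strand. In C130026I21Rik they lie at chr1:85260737-85260899 and chr1:85259695-85259866, and in A530032D15Rik at chr1:85100532-85100694 and chr1:85099477-85099648, both on the minus strand. A further copy, called the fourth copy below, lies at chr1:85113493-85113655 and chr1:85112438-85112609. On the minus strand that copy belongs to alternative transcripts of C130026I21Rik, and on the plus strand A530040E14Rik crosses it, so that a sense transcript of A530040E14Rik is antisense to the coding copies. Exon 2 is identical in the 4 copies. Over both exons, Sp140 differs from C130026I21Rik at 1 base and from A530032D15Rik at 2 bases, all in exon 3. The fourth copy differs from Sp140 at 26 bases of exon 3, at position 197 and then from position 298 on.

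Exon 2 held 1767 antisense and 1142 sense reads over the 3 libraries, or 12.3 antisense and 7.93 sense reads per 20-base window. Exon 3 held 176 antisense and 90 sense reads, or 1.15 and 0.588 per window. Windows across the junction of the exons in the spliced coding transcript held 0 of 1943 antisense and 0 of 1232 sense reads. They are 19 of the 316 windows (6.01%). Windows at the start of exon 3 also held 0 reads on both strands, whereas the last windows of exon 2 held reads. The empty stretch is therefore not particular to the junction, and reads were not spread evenly over the windows. A count of 0 allows a share of up to 0.154% of the antisense and 0.244% of the sense reads, for counting error only. Introns were not searched, so reads that run from an exon into an intron of the coding genes were not analysed here.

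Reads that cover a base where the copies differ were few, all in exon 3. At position 218, where C130026I21Rik differs from the other copies, 84 antisense reads had the base of Sp140, A530032D15Rik and the fourth copy, and 1 had that of C130026I21Rik. Of the sense reads there, 7 had the base of C130026I21Rik and 5 that of the others. At position 291, 16 antisense reads had the base of Sp140, C130026I21Rik and the fourth copy and 0 that of A530032D15Rik. Of these 16, 8 matched Sp140, C130026I21Rik and the fourth copy alike. The rest also covered position 298 and matched the fourth copy alone. Sense reads with the A530032D15Rik base numbered 3 there, and 0 had the other. From position 298 on, the 9 antisense reads all matched the fourth copy and no sense read was found. These 9 reads are among the 36 that matched 2 or 3 members, because both C130026I21Rik and A530040E14Rik hold the fourth copy. At position 192, 2 antisense and 2 sense reads had the base of Sp140, C130026I21Rik and the fourth copy and 0 had that of A530032D15Rik. At position 197, 6 antisense and 11 sense reads had the base of the 3 coding copies and 0 had that of the fourth copy. The strands differed in which copies they matched at positions 218 and 291 and did not differ at positions 192 and 197. These counts are small except for the antisense reads at position 218. Not all of them are separate observations. The reads counted at position 192 also cover position 197, and part of the antisense reads at position 291 also cover position 298.

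Antisense reads made up 61.3% (59.2 to 63.4) of the reads in all 4 members in the 19-30 nt window and 61.0% (58.0 to 63.8) in the 19-24 nt window. In the 24-30 nt library, 18 of 29 such reads were antisense. Over all family reads with a strand on a coding gene, the antisense share was 59.6% (57.6 to 61.5) in the 19-30 nt and 59.2% (56.4 to 61.9) in the 19-24 nt window. Counting each distinct sequence once, it was 51.7% and 51.2%. The reads were spread unevenly along exon 2. The antisense 5' end with most reads over the 3 libraries together, at position 66, had 161 reads in the 19-30 nt, 52 in the 19-24 nt and 0 in the 24-30 nt window. The antisense end at position 75 had 51, 61 and 1 reads, and that at position 141 had 52, 53 and 0, so both exceeded position 66 in the 19-24 nt library. Among the 19-30 nt reads the antisense ends at positions 50 and 53, with 71 and 58 reads, came after position 66. The sense 5' end at position 112 had 53, 21 and 0 reads and led in the 19-30 nt library, while position 107 with 27 reads led in the 19-24 nt library. Over 240 combinations of strand and position with a read in the 19-30 or 19-24 nt library, 143 were seen in both. Pearson's r between the counts of those libraries was 0.785 and Spearman's rank correlation 0.598 across positions, which are not independent and share the ligation chemistry.

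**Figure D2:**
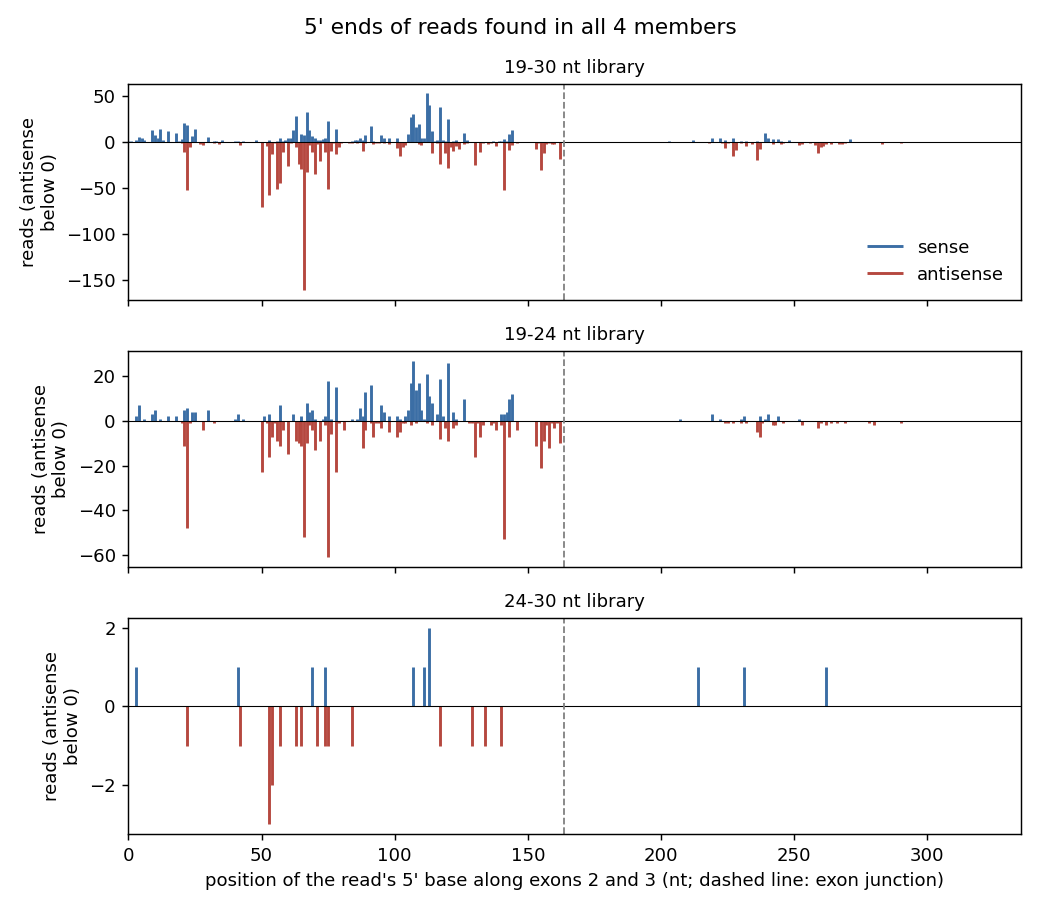
Number of reads by the position of the 5' base along exons 2 and 3 (nt), sense above 0 and antisense below, for reads found in all 4 members in the 19-30 nt, 19-24 nt and 24-30 nt libraries; vertical axes differ and the dashed line is the exon junction. Most reads lie in exon 2, and the antisense end at position 66 has 161, 52 and 0 reads in the 3 libraries.

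Inserts could be sized fully only in the 36 nt reads. In the 19-30 nt library, 93.9% (92.6 to 94.9) of the 1649 sized reads in all 4 members were 20 to 23 nt long and 1.94% were 25 to 30 nt. By length, 150 were 20 nt, 547 were 21 nt, 627 were 22 nt and 224 were 23 nt. For the 114220 sized matched reads outside the family and microRNA, 79.4% (79.2 to 79.6) were 20 to 23 nt. Another 369 of the shared reads had no recognised linker. Set against the transcript, 334 of these could be given a length, and 321 of them were of up to 23 nt. In the 19-24 nt library, 262 of the 349 shared reads without a recognised linker could be given a length. With these, 973 of the 989 shared reads given a length were of up to 23 nt. The gel window of that library ends at 24 nt, so this share is largely set by the window. U was the first base of 60.0% (57.8 to 62.1) of the shared reads in the 19-30 nt library, against 60.6% (60.4 to 60.8) of the other matched reads. It was the first base of 66.4% (63.7 to 69.0) of the antisense and 49.7% (46.2 to 53.2) of the sense reads there. In the 19-24 nt library it was that of 58.8% (55.0 to 62.5) of the antisense and 55.8% (51.0 to 60.5) of the sense reads, with overlapping intervals.

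**Figure D3:**
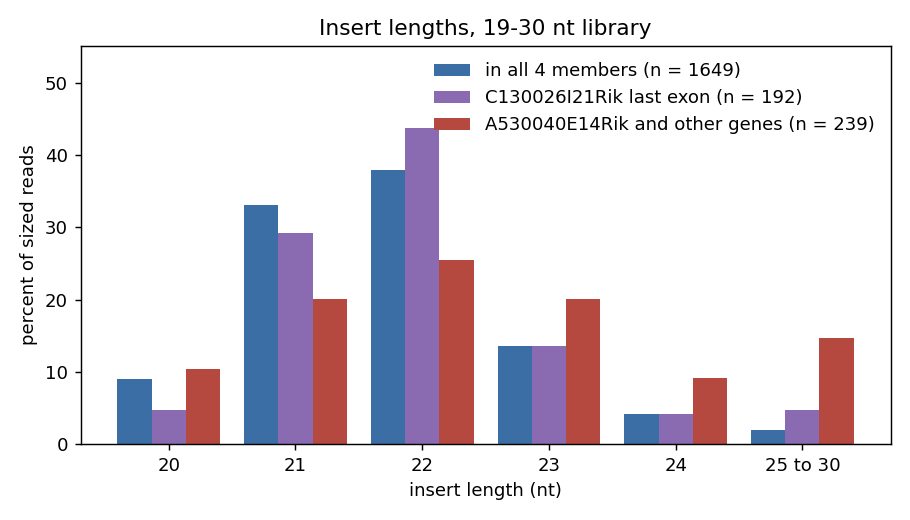
Percent of sized reads by insert length (nt) in the 19-30 nt library, for reads in all 4 members, reads private to the last exon of C130026I21Rik, and A530040E14Rik reads that also match other genes. Reads in all 4 members and of the last exon peak at 21 and 22 nt, and 14.6% of the A530040E14Rik reads shared with other genes are 25 to 30 nt, against 1.94% of the reads in all 4 members.

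Opposite strands of the shared reads overlapped at many lengths. Of 332395 pairs of an antisense and a sense read whose 5' ends overlapped by 1 to 30 nt, with the libraries pooled and pairs across libraries included, 6.40% overlapped by 1 nt, the most frequent length. Within the 19-30 nt library the most frequent overlap was 4 nt (6.79%), and within the 19-24 nt library 1 nt (7.43%). In the pooled pairs, overlaps of 10 nt made up 3.40%, of 19 nt 3.22% and of 20 nt 1.90%, and the median over the lengths was 3.20%. Because the copies cannot be told apart, the strands of a pair may come from different copies. A Dicer product has 3' overhangs of 2 nt on each strand, and pairs of that form made up 0.445% of the pairs of sized reads in the 19-30 nt library. Pairs with overhangs of 0, 1, 3 and 4 nt on both strands made up 0.743%, 0.308%, 0.710% and 0.540%, so the 2 nt form did not stand out. The pair of this form with most reads is shown as an example, chosen after its values were seen, with the paired bases in capitals.
antisense strand: TCGAAGGCTCATGAGGAAAgg
sense strand: TTTCCTCATGAGCCTTCGAga
Both strands are 21 nt long and pair over 19 nt, and they were read 3 times (antisense) and 13 times (sense) in the 19-30 nt library.

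C130026I21Rik also had reads that matched no other annotated gene. The last exon of an annotated transcript, chr1:85241286-85241897, has 14 coding and 598 non-coding bases. It held 340 reads found at no other place among annotated transcripts, with 240 in the 19-30 nt, 94 in the 19-24 nt and 6 in the 24-30 nt window. The genome was not searched, so copies of this exon outside annotated transcripts could also match these reads. Its level in the 19-24 nt window was 17.6 times that in the 24-30 nt window (7.81 to 49.3), and 77.8 times without microRNA in the denominator. Both strands were present, with 141 antisense and 99 sense reads in the 19-30 nt window (58.8% antisense, 52.4 to 64.8) and 48 and 46 in the 19-24 nt window. In the 19-30 nt library 91.1% (86.3 to 94.4) of the sized reads were 20 to 23 nt, and 58.8% of the reads began with U. The reads were scattered, with 180 distinct combinations of strand and 5' end and at most 16 reads on any. The most frequent whole read private to the gene is shown because it matched 1 place alone among annotated transcripts. It lies in this exon on the gene's own strand and was read 5, 1 and 0 times.
C130026I21Rik, chr1:85241770-85241790, minus strand: Ttattgatccatcttgcgctg

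Other reads of the coding genes were shared with relatives and pseudogenes. C130026I21Rik had 134 reads that matched it and also genes outside the family, with 106, 27 and 1 in the 19-30, 19-24 and 24-30 nt libraries. They were 35.8% antisense (27.4 to 45.3) and 97.4% of the sized ones were 20 to 23 nt in the 19-30 nt library. Family reads shared with Sp110, another SP100-family gene, numbered 120, and those shared with the pseudogenes Gm16026 and Gm15753 numbered 168 and 104. Sp140 had 74 such reads, with 59, 12 and 3 in these libraries.

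A530040E14Rik had reads of a different kind in its first exon. That exon, chr1:85105946-85106690, held 808 reads on the gene's own strand and 150 on the other over the 3 libraries, and only 3 of these matched no gene outside the family. The 24-30 nt library gave 522 of the 808. Reads that matched A530040E14Rik and also outside genes numbered 304 in the 19-30 nt, 122 in the 19-24 nt and 558 in the 24-30 nt window. They were on the strand of A530040E14Rik in 221, 74 and 521 of these. Their level in the 19-24 nt window was 0.246 times that in the 24-30 nt window (0.201 to 0.300) per matched read, and 1.09 times (0.885 to 1.32) without microRNA in the denominator. Among the genes that shared most of them were Gm38947, Gm16344, D10Wsu102e, Tmem72 and Gm48764, with 941, 932, 931, 917 and 880 family reads. Annotated microRNA genes such as Gm22468 and Gm25110 shared 321 family reads each, on strands not separated here. Part of the family reads can therefore belong to the microRNA class that was left out of the denominator. In all, 232 genes at other places, some of them near the family on chromosome 1, shared 10 or more reads with any member. Some, such as Sp110 and Gm16026, shared reads mainly with C130026I21Rik. Which place gave rise to the reads that matched A530040E14Rik and outside genes cannot be told apart.

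These reads also differed from the reads in all 4 members in length and overlap. In the 19-30 nt library 76.2% (70.4 to 81.1) of the sized reads were 20 to 23 nt and 14.6% were 25 to 30 nt. The 20 to 23 nt share of the matched reads outside the family and microRNA, 79.4%, lies within that interval. In the 24-30 nt library, 400 of the 549 unsized reads could be given a length against the transcript, and 353 of them ran to the end of the 26 nt read. U was the first base of 65.1% in the 19-30 nt, 50.0% in the 19-24 nt and 80.5% in the 24-30 nt window. Opposite 5' ends overlapped by 10 nt in 6.82% of the pairs in the 19-30 nt, 5.67% in the 19-24 nt and 89.9% in the 24-30 nt window, among overlaps of 1 to 30 nt. In the 19-30 and 19-24 nt libraries the most frequent overlap was 17 nt, with 12.6% and 13.6% of the pairs. The 10 nt pairs of the 24-30 nt library came from 7 pairs of positions, and 59.5% of them from a single one with 76 reads on the strand of A530040E14Rik and 16 on the other. Over the 3 libraries together, with pairs across libraries included, the 10 nt share was 34.9% for these reads and 3.40% for the reads in all 4 members. In the 24-30 nt library the reads in all 4 members formed only 32 pairs, 0 of them at 10 nt. Background knowledge names 10 nt as the overlap of the ping-pong cycle of piRNAs.

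**Figure D4:**
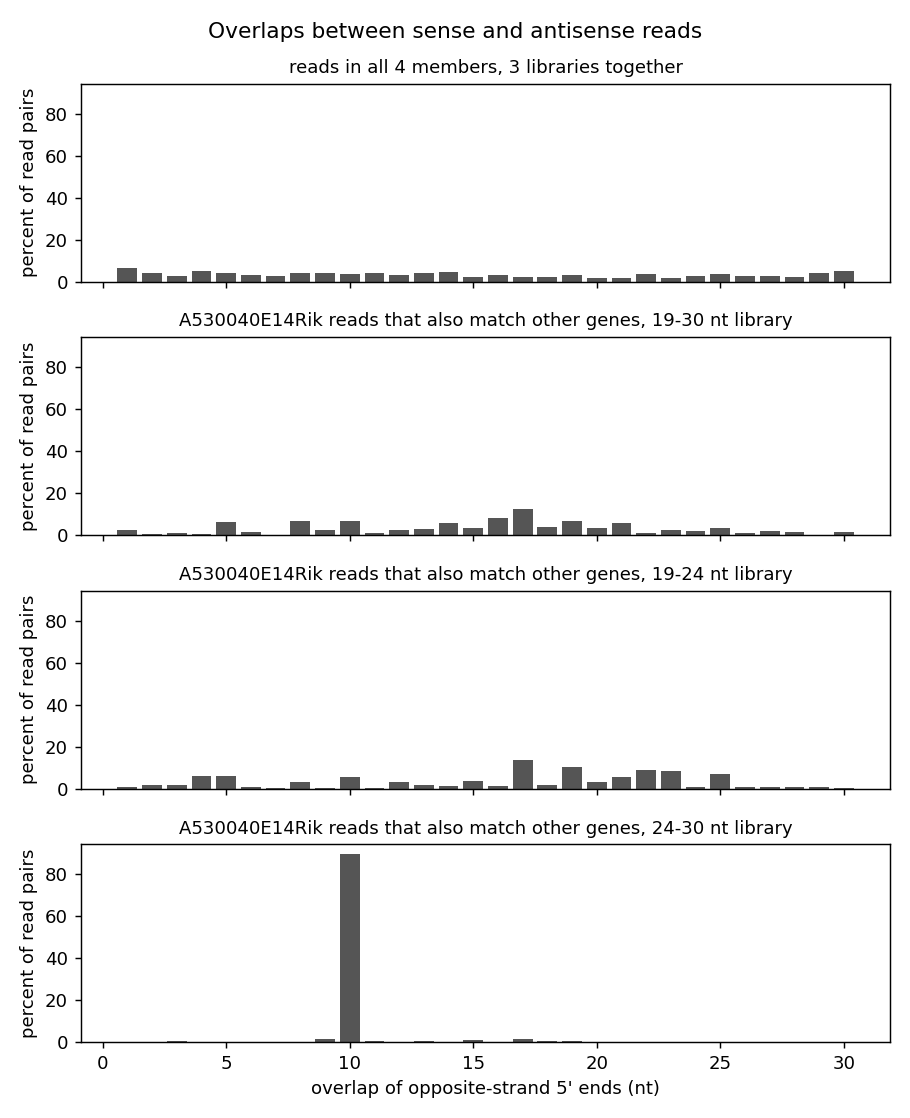
Percent of pairs of opposite-strand reads (vertical axis) by the overlap of their 5' ends in nt (horizontal axis), for reads in all 4 members with the libraries together (top panel) and for A530040E14Rik reads that also match other genes in the 19-30 nt, 19-24 nt and 24-30 nt libraries (lower panels). For the A530040E14Rik reads the 10 nt overlap holds 6.82%, 5.67% and 89.9% of the pairs in these libraries, and for the reads in all 4 members no length exceeds 6.40%.

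Downstream of its copy of exon 2, A530040E14Rik had reads found in no annotated transcript outside the family. The segment chr1:85113656-85114035 held 86 reads on the gene's own strand and 24 on the other. Of these reads, 102 were in the 19-30 nt, 5 in the 19-24 nt and 3 in the 24-30 nt window. The level in the 19-30 nt window was 31.9 times that in the 19-24 nt window (13.2 to 100.4), against 2.84 (2.63 to 3.06) for exon 2 beside it. Without microRNA in the denominator these ratios were 8.24 (3.42 to 25.9) and 0.732 (0.678 to 0.791). The most frequent whole read private to the gene was read 8 times, all in the 19-30 nt library.
A530040E14Rik, chr1:85113669-85113690, plus strand: Ttccatgcagaagtagatactg
Between the copies of exons 3 and 2, 446 exonic bases held 11 reads on the gene's strand and 7 on the other, of which 2 matched no outside gene.

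**Figure D5:**
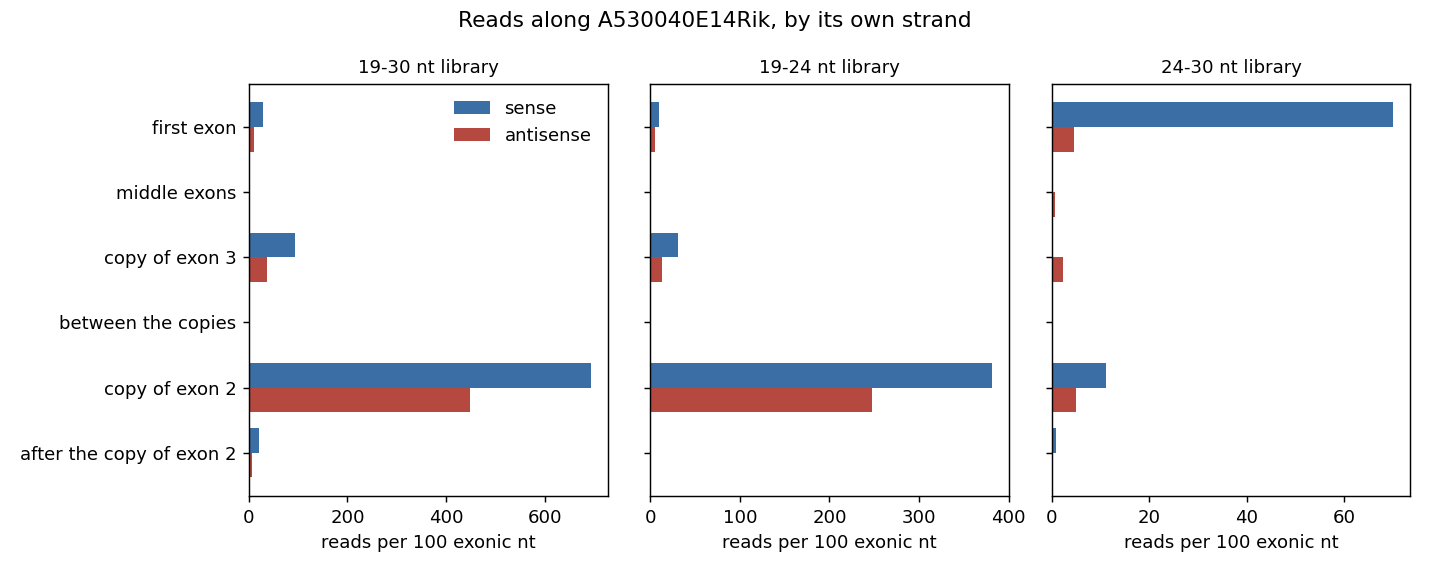
Reads per 100 exonic nt (horizontal axis) in 6 segments of A530040E14Rik in transcript order, on the gene's own strand and on the other, in the 19-30 nt, 19-24 nt and 24-30 nt libraries; horizontal axes differ. The copy of exon 2 leads in the 19-30 nt and 19-24 nt libraries and the first exon leads in the 24-30 nt window, where it has 522 reads on the gene's strand and 34 on the other.

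Of the wider SP100 and PML list, Sp110 had 428 reads, of which 120 were shared with the family and 30 had a single place. Sp100 had 2263 reads and Pml 39, none of them with a single place and none shared with the family. Csprs was not analysed here. Within 500 kb of the family, 54 other genes are annotated, of which 36 had a read, 25 had 10 or more and 13 shared reads with the family. Those with most reads were Gm6264 (2278), Sp100, Gm37738 (985), Gm16026 (732) and Gm7609 (524). Only Sp110 and 1 other gene, Trip12, had 10 or more reads with a single place (30 and 15).

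Genes with reads of both strands in earlier results of these libraries served for comparison. Cwc22 had 849, 1057 and 18 reads in the 19-30, 19-24 and 24-30 nt libraries, 54.3% antisense, with 95.7% of the sized reads of the 19-30 nt library at 20 to 23 nt. Pdzd11 had 484, 144 and 3 reads, 65.3% antisense, and Kif4 had 486, 149 and 5, 34.4% antisense. Rangap1 had 610, 329 and 41, 84.7% antisense, and Optn 715, 199 and 5, 35.7% antisense. Their shares of 20 to 23 nt in the 19-30 nt library were lower than that of Cwc22, with 87.4% for Pdzd11, 87.5% for Kif4, 92.5% for Rangap1 and 86.6% for Optn. By antisense share, share of 20 to 23 nt and the ratio between the 19-24 and 24-30 nt libraries, the genes closest to the reads in all 4 members, among 6514 genes, were Gm16574, Gm6201, Pdzd11, Hdx and Cwc22. Closest to the values of the family were Atp6v1h, Dera, Srsf3, Gm26766 and Gm5113. Those values mix sets of reads. The antisense share took only reads with a strand on a coding gene, whereas the ratio and the length share took all family reads.

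MicroRNAs known from granulosa and stromal cells made up 3.93%, 20.9% and 2.58% of the microRNA reads of the 19-30, 19-24 and 24-30 nt libraries, and those of the germline and early embryo 7.13%, 0.325% and 0.0750%. Blood microRNAs made up 0.0436%, 1.35% and 0.513%. Reads were found for 9, 10 and 10 of the 10 granulosa and stromal, 10, 10 and 7 of the 11 germline and 2, 4 and 2 of the 5 blood microRNAs in these libraries. The libraries therefore differed in the marker microRNAs of other cells, and the part of such cells in the family's reads was not tested.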

How the data were processed

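The deposited files hold single reads with base qualities, which are values other than counts, per the files themselves; the authors' trimming, aligner and genome build are not given in the sources used here. Reads were counted here. The linker was learned from the reads and trimmed with at least 4 (26 nt reads) or 6 (36 nt reads) called bases and up to 20% mismatches; of 5000 simulated reads per length with 2% errors, at least 93.7% (26 nt reads, inserts of 20 to 22 nt) and 99.3% (36 nt reads) were given their exact length. Reads with an insert of at least 20 nt, or with no linker found, were matched over their first 20 nt, without mismatch, to 141767 GENCODE M21 transcripts on both strands and placed on GRCm38 by exon coordinates. The genome itself was not searched, and a single place means 1 place among annotated transcripts. Reads with more than 1000 places were left out of the tables of genes.

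Usable reads numbered 681511, 609764 and 1395214 in the 19-30, 19-24 and 24-30 nt libraries, of which 29.1%, 51.0% and 25.1% matched. Intervals are Wilson's for shares, exact Poisson for levels and conditional binomial for ratios. With 1 library per window there is no test. The members, gene lists and comparisons were chosen with earlier results of these data known. Genes were named by a fixed rule: the members, the 500 kb neighbourhood, the SP100 and PML list, 5 comparison genes, the genes sharing most reads, and the 5 closest in pattern. Trip12 and the genes closest to the reads in all 4 members were added after their values were seen, as were transcript-anchored lengths, which allowed 1 mismatch in 26 nt reads (cycle 21 left out) and 6 in 36 nt reads. The rule for a printed pair of opposite reads (most reads at the most frequent overlap) gave a pair overlapping by 1 nt, read 87 (antisense) and 4 (sense) times, and the pair shown instead was chosen later. Ratios without microRNA for groups of family reads were also added later. Alternatives were weighting by places, other denominators, distinct sequences, lengths within the window, a longer linker overlap, no outside matches, 18 matched bases and splitting both-strand reads. Analyses used python 3.11.15, numpy 2.4.6, pandas 2.3.3, scipy 1.17.1 and matplotlib 3.10.9.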

Additional observations from a re-analysis of the deposited data

Results flagged for a closer look

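Inserts of 18 and 19 nt, which the counts above leave out because 20 bases had to match, also matched all 4 members over their first 18 nt. There were 16 such reads in the 19-30 nt library, 6 of them antisense, and 16 in the 19-24 nt library, 11 of them antisense. None were found in the 24-30 nt library. They are listed because they exceed the 3 reads that a count of 0 allows, and there is no control library to set them against.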

How the results depend on the processing

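No paired analysis was possible because there is 1 library per window and no result comes from a test. Of 53 alternative values, 27 lay within the counting interval of the reported value, 25 lay outside it and 1 changed direction. The 1 that changed direction was the 19-30 over 19-24 nt ratio, 0.862 per 1000000 matched reads without microRNA. With that denominator the 19-24 over 24-30 nt ratio was 11.1 and the 19-30 over 24-30 nt ratio 9.55. In the same order (19-24 over 24-30, 19-30 over 24-30, 19-30 over 19-24), the ratios were 11.7, 43.5 and 3.73 when each read was weighted by 1 over its places, 5.11, 9.75 and 1.91 per 1000000 usable reads, 4.84, 5.38 and 1.11 over distinct sequences, and 41.9, 122.6 and 2.93 for reads in all 4 members, an alternative added after seeing the data. Without outside matches the first 2 were 31.9 and 101.0, and lengths within the window gave 9.27 for the 19-30 over 24-30 nt ratio. Distinct sequences gave antisense shares of 51.7% (19-30 nt) and 51.2% (19-24 nt), 86.3% at 20 to 23 nt, 48.6% beginning with U and 39.5% matching more than 1 member. Weighting by places gave 92.9% at 20 to 23 nt and 58.5% matching more than 1 member, and leaving out outside matches gave 93.6% at 20 to 23 nt; the reported values are 91.7% and 65.5%. The causes were not tested. No read matched both strands of the coding genes, so splitting such reads moved nothing. The 29 reads in all 4 members limit the precision of the 24-30 nt values.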
